A study of Mus musculus with 10 samples.

Results

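The transcripts described here are those of 50 genes that act in S phase or in mitosis, from cyclins and E2F factors through the replicative helicase to kinesins and partners of the anaphase-promoting complex. They were taken by gene symbol from a list, a rule that uses no measured value, although the list was drawn up with earlier results of these data known, and all 50 symbols were found among the 23230 features measured in 10 libraries of mouse cells. All 50 had a mean of at least 1 FPKM (fragments per kilobase of exon, scaled to the mapped fragments of the library) in both comparisons and so none was lost to the filter on low values.

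As a cell commits to division, D-type cyclins with CDK4 or CDK6 phosphorylate the retinoblastoma family, which releases E2F factors to transcribe cyclin E, the minichromosome maintenance (MCM) helicase and the enzymes of nucleotide supply. Later in the cycle the MuvB complex, joined by B-MYB and FOXM1, switches on the mitotic kinases, kinesins and kinetochore proteins, often through a CHR element (cell cycle genes homology region) and CCAAT boxes near the start site. The same MuvB core joins p130 or p107 to form DREAM, which holds both waves silent in cells that have left the cycle, so the transcripts as a group follow the share of cells that are cycling. The Ink4a/Arf locus, which encodes the CDK inhibitor p16 and the p53 activator p19, acts upstream of this switch and is among the loci most often lost in high-grade glioma.

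AstroEGFR* were cortical astrocytes taken at P5 from C57BL/6 mice that lacked p16/p19 (Ink4a/Arf-/-), infected with a retroviral vector for human EGFRvIII, a constitutively active EGF receptor, and kept for fewer than 10 passages in medium with fetal bovine serum. P5 is the start of the range of pup ages that the methods of the study give. PT were glioma propagating cells, grown from tumours that AstroEGFR* formed after transplantation into CD1 Nude mice, kept for fewer than 10 passages on laminin in serum-free medium with EGF and FGF2. AstroEGFR* Zfp423 were AstroEGFR* that also carried a vector for Zfp423, a zinc finger transcription factor, which the sample labels call lentiviral and the study calls retroviral. Every group therefore carried the p16/p19 deletion and the EGFR vector, and the medium and the passage through a tumour cannot be told apart as sources of a difference. There were 3 AstroEGFR*, 4 PT and 3 AstroEGFR* Zfp423 libraries, 1 per culture. Each AstroEGFR* was 1 astrocyte batch, each AstroEGFR* Zfp423 carried the number of its batch, and a figure of the study, not the sample labels, places PT1 and PT4 in batch 1, PT2 in batch 2 and PT3 in batch 3. How many animals made up a batch was not given in the sources used here, and p-values measure the spread between these cultures only.

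The libraries were unlike each other within groups. Small non-coding RNA and histone features took 0.801% to 6.12% of the FPKM in AstroEGFR*1, AstroEGFR*3, PT1, PT3 and PT4 and 29.7% to 54.8% in the other 5 libraries, and the count of features above 0 ran from 14075 in PT3 and 14813 in AstroEGFR*3 to 17030 in AstroEGFR*2. The depth is unknown, since the values hold no counts. Of the 9 astrocyte markers, Fabp7 was at 0.316 FPKM and Gfap at 1.11 FPKM in AstroEGFR*2 Zfp423, against 58.0 to 2411 FPKM and 5.95 to 725 FPKM in the other libraries. The 12 markers of microglia summed to 2043 FPKM in AstroEGFR*1 Zfp423 and 1191 FPKM in AstroEGFR*2 Zfp423, and to 1.23 to 36.7 FPKM in the other 8 libraries. The 8 markers of fibroblasts or meninges summed to 5165 to 7687 FPKM in those libraries and AstroEGFR*3, and to 47.6 to 699.9 FPKM in the other 7. Zfp423 itself was at 3.25 to 4.30 FPKM in AstroEGFR*, 15.7, 9.73 and 105.1 FPKM with the vector in batches 1, 2 and 3, and 0.641 to 2.78 FPKM in PT. Cdkn2a was listed at 3.96 to 129.7 FPKM in all 10 libraries, which is no check of the deletion because a value for the whole gene does not show which exons were read. Mouse Egfr was listed at 7.81, 362.4 and 63.0 FPKM in AstroEGFR* of batches 1, 2 and 3, at 18.9 to 133.8 FPKM in PT and at 82.2 to 343.1 FPKM with Zfp423, and whether it holds reads of the human vector is unknown.

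Levels of the 50 genes spanned a wide range in every group. On the FPKM scale, which is per length and so allows genes to be compared, Top2a, the topoisomerase that untangles sister chromatids, stood at 66.6 to 252.3 FPKM in AstroEGFR*, while E2f2, an activator E2F, stood at 0.802 to 3.33 FPKM. The median of the 50 genes was 24.1, 52.1 and 23.3 FPKM in AstroEGFR* of batches 1, 2 and 3, and 22.4, 28.3 and 12.2 FPKM in the same batches with Zfp423. In PT it was 39.7 FPKM in PT1, 29.3 FPKM in PT4, 9.18 FPKM in PT3 and 2.97 FPKM in PT2. As a share of the FPKM outside small non-coding RNA and histones, the 50 genes held 0.685% in PT1, 0.493% in PT4, 0.125% in PT3 and 0.0646% in PT2, against 0.338% to 0.880% in AstroEGFR* and 0.211% to 0.417% in AstroEGFR* Zfp423. In bulk RNA, fewer cycling cells and less of these transcripts per cell cannot be told apart.

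**Figure D1:**
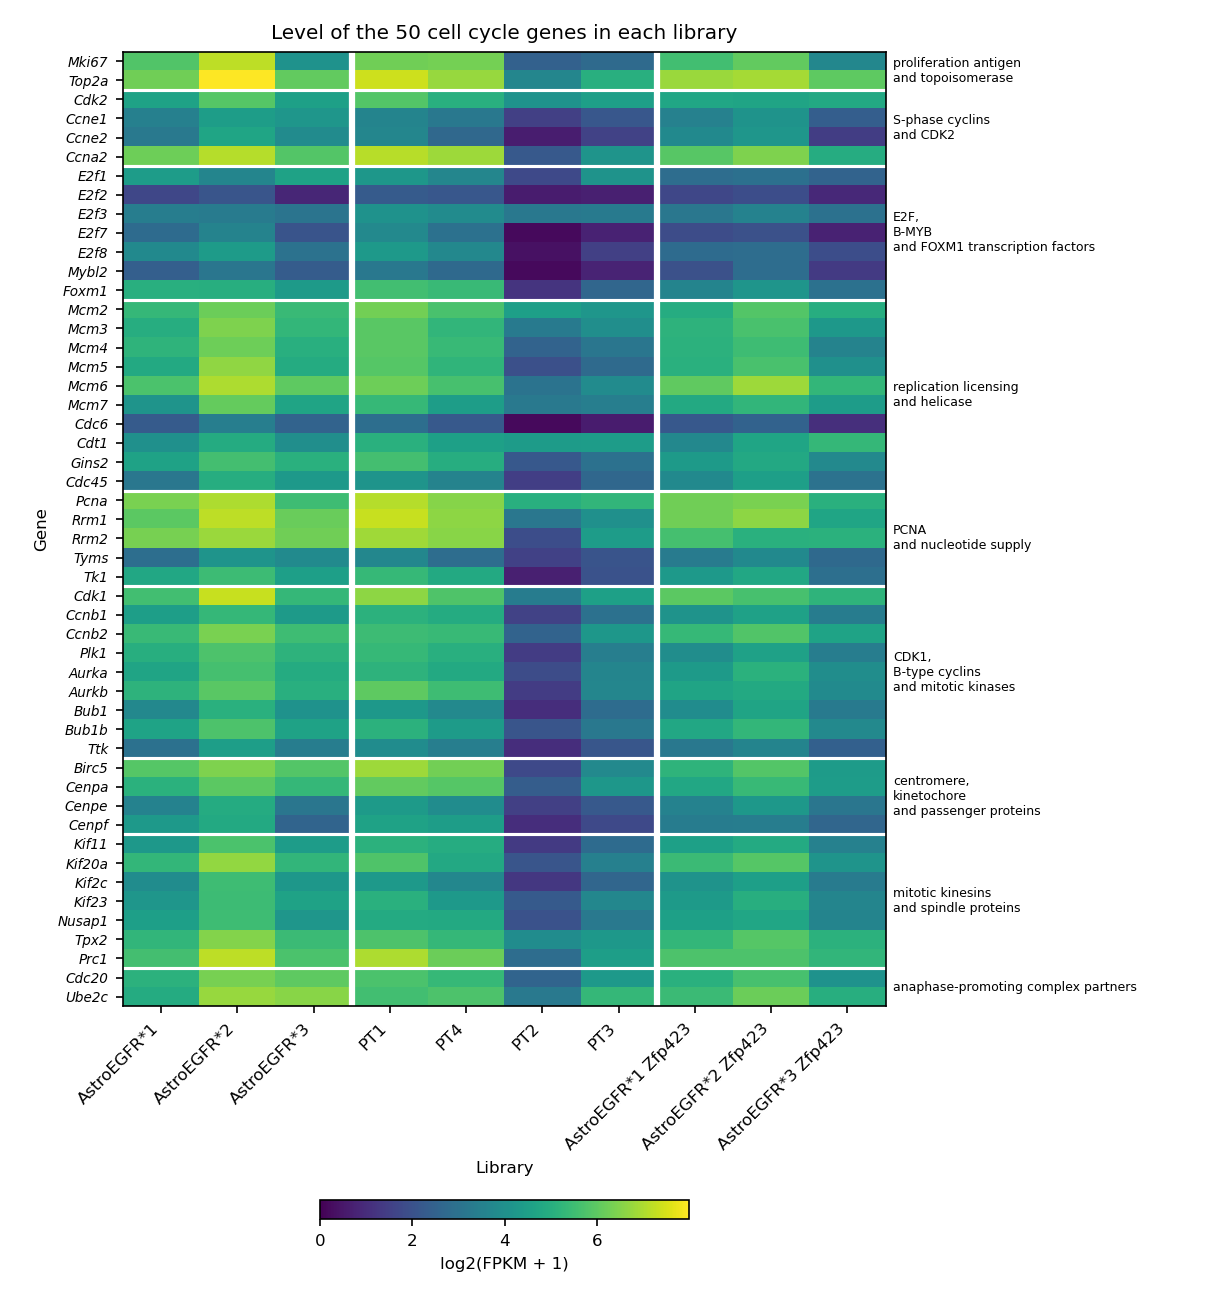
Level of each of the 50 genes (rows, grouped by role) in each of the 10 libraries (columns), as log2(FPKM + 1) on a colour scale from 0. PT2 is the lowest column, with a median of 2.97 FPKM, followed by PT3 with 9.18 FPKM, while PT1 and PT4 have medians of 39.7 and 29.3 FPKM.

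Some libraries held the same place for most of the genes. PT2 was the lowest of the 10 libraries for 47 of the 50 genes, against 15.8% of the 12476 features that averaged 1 FPKM or more over all libraries. The exceptions were E2f3, Cdt1 and Mcm2. AstroEGFR*2 was the highest of its group for 47 genes, against 33.9% of features, and the highest of all 10 libraries for 34, against 8.02%. PT1 was the highest of all for 14, against 7.18%. Both PT of batch 1 lay above PT2 and PT3 in 49 genes, with E2f1 the exception, against 29.8% of features. PT3 lay above PT2 in 49 genes, with Mcm2 the exception, against 52.5% of features.

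RefSeq promoter windows of GRCm38.p6, from 250 bases before to 50 bases after the start site, were matched by symbol for 42 of the 50 genes, which gave 46 windows, some genes having more than 1 start site. No window was matched for Tpx2, Kif20a, Ccne2, Foxm1, Gins2, Mcm4, Ccna2 and Aurkb. Of the 20 windows of mitotic genes, 18 (90%) held a CHR element, searched as TTTGAA or TTTAAA on either strand, against 37.5% of 16 windows of S-phase genes, 19% of 11312 windows of features that averaged 1 FPKM or more and 27.6% of all 32851 windows. A CCAAT box (CCAAT on either strand) was in 85% of mitotic and 68.8% of S-phase windows, against 38.0% of windows of those features, and both elements were in 80% of mitotic, 25% of S-phase and 7.54% of those windows. E2F sites were searched as TTTGGCGC, TTTCCCGC, TTTGGCGG, TTTCCCGG, TTTCGCGC or TTTGCGCG on either strand, and were in 43.8% of S-phase, 10% of mitotic and 6.89% of those windows. TTTAAA reads the same on both strands and also occurs in TATA-like stretches. Windows of 1 gene can overlap, and these shares are descriptions of letters in a window with no test.

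**Figure D2:**
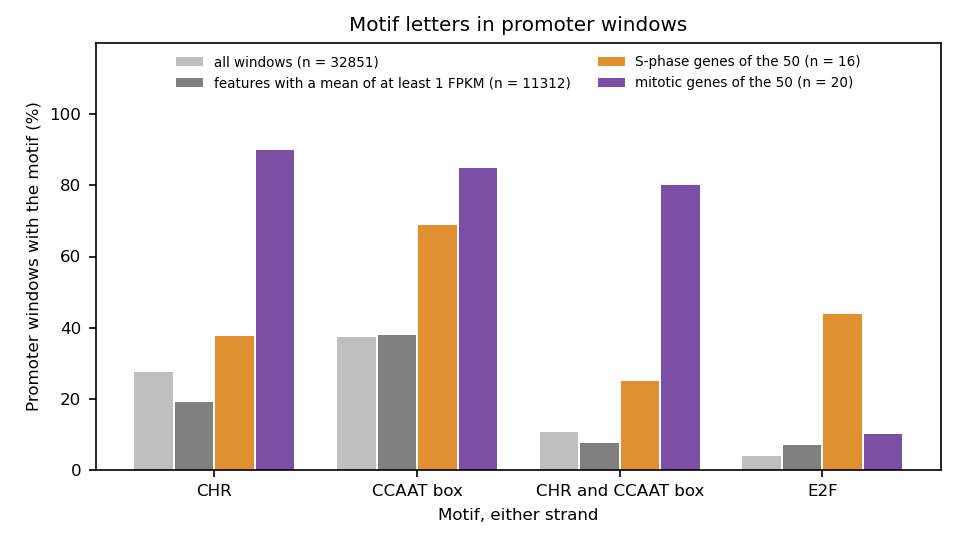
Share of promoter windows (%) that hold the letters of a CHR element, a CCAAT box, both, or an E2F site on either strand, for all windows, windows of features that averaged 1 FPKM or more, and windows of the S-phase and mitotic genes among the 50. The mitotic genes have the highest bars for CHR (90%) and CCAAT (85%), and the S-phase genes have the highest bar for E2F (43.8%).

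The windows below are of the genes with the lowest p among matched S-phase and mitotic genes, Ccne1 and Kif2c for PT and Rrm2 and Plk1 for Zfp423. They are shown so that the letters searched can be seen in the genes of lowest p, with the elements in capitals and the strand of the gene reading 5′ to 3′.
Ccne1, chr7:38107441-38107740, minus strand: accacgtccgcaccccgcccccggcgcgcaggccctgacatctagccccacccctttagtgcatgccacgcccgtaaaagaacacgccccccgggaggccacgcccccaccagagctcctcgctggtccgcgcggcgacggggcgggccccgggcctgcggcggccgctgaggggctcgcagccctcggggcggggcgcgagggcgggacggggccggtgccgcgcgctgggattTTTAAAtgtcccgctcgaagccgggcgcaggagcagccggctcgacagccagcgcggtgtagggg
Kif2c, chr4:117178723-117179022, minus strand: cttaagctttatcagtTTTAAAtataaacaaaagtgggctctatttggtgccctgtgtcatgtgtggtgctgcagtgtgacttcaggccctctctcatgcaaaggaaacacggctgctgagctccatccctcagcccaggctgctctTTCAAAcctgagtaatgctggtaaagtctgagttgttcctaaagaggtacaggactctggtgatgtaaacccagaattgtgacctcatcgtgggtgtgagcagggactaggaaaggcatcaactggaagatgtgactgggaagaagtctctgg
Rrm2, chr12:24708004-24708303, plus strand: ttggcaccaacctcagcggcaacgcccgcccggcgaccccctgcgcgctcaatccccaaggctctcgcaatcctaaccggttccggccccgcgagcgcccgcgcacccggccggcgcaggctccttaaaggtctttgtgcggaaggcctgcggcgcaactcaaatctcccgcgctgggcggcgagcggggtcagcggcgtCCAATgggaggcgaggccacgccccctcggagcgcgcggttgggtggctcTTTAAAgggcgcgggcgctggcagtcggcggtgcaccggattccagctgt
Plk1, chr7:122159185-122159484, plus strand: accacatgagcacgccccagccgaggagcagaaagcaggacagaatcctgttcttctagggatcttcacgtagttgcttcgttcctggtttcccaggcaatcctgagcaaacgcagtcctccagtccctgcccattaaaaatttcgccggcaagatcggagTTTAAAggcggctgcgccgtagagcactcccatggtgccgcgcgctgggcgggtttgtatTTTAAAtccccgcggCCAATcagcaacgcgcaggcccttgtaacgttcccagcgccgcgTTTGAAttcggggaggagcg
Counted from the start base as 0, the Plk1 window held TTTAAA at -89 and -29, a CCAAT box at -14 and TTTGAA at 30. The Rrm2 window held a CCAAT box at -50 and TTTAAA at 0. The Ccne1 window held TTTAAA at -15 alone of the letters searched, and the Kif2c window held TTTAAA at -234 and TTCAAA, which is TTTGAA on the other strand, at -103.

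The first comparison asked how the cell cycle transcripts of the tumour-derived cells differ from those of the astrocytes that gave rise to the tumours. Of the 50 genes, 48 had a lower mean in PT, with a median log2 difference of -1.13 on the log2(FPKM + 1) scale against 0.03 for all 12261 features tested, and E2f3 and Cdt1 had a higher mean. None of the 50 passed an adjusted p of 0.05 with limma, where 152 features (1.24%) did, 39 higher and 113 lower in PT. With the astrocyte batch as a block, 475 features (3.87%) passed and again none of the 50, the lowest adjusted p among them being 0.173, against 0.309 without the block and up to 0.656 under other alternatives. At an unadjusted limma p below 0.05, 2 of the 50 genes were lower, Ccne1 and Ccne2, against 7.69% of features. For none of the 50 did every PT library lie below every AstroEGFR* library, which held for 8.16% of features. Of the libraries compared, PT2 and PT3 had the lowest medians of the 50 genes and AstroEGFR*2 the highest. With AstroEGFR*2 left out, the median log2 difference was -0.79 with 45 genes lower. Without PT2 the median log2 difference was -0.51 with 46 genes lower, and without batch 2 it was -0.15 with 35 genes lower. Without PT1 it was -1.65, with 18 genes lower at an unadjusted limma p below 0.05, against 934 of 12311 features. No gene reached that p without AstroEGFR*2, AstroEGFR*3, PT2 or PT3 in turn.

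Within batches, with 1 library against 1 and so no test, the direction depended on the batch. In batch 1, 49 of the 50 genes were higher in PT1 than in AstroEGFR*1, against 51.6% of features, with a median log2 difference of 0.70, and 8 were higher by at least 1 on the log2 scale (2-fold on that scale), which is 16% of the list against 7.98% of features. None was lower by that much, against 10.6% of features. In PT4, from the same batch, 39 were higher, against 52.4% of features, the median was 0.29 and again none was lower by at least 1, against 10.7% of features. In batch 2 all 50 were lower in PT2, against 50.6% of features, 48 of them by at least 1 against 16.5% of features, with a median of -3.71, and the summed FPKM of the 50 genes was 12.7-fold lower. In batch 3, 48 were lower in PT3, against 46.6% of features, 39 of them by at least 1 against 14% of features, with a median of -1.35 and a summed FPKM 2.64-fold lower. E2f3 and Cdt1 were the genes not lower by at least 1 in PT2 and the genes higher in PT3. The medians over all features tested in these pairs lay between 0.01 and 0.06.

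**Figure D3:**
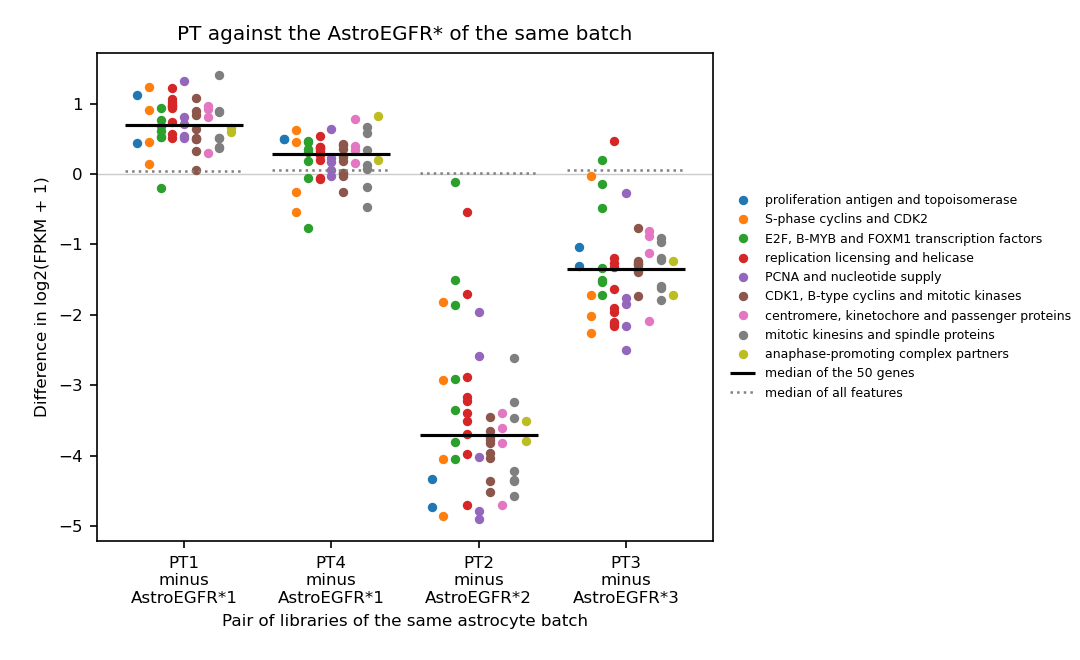
Difference in log2(FPKM + 1) of each of the 50 genes between a PT library and the AstroEGFR* library of its batch, with points coloured by role, a black line at the median of the 50 genes and a dotted line at the median of all features tested. The medians are 0.70 for PT1, 0.29 for PT4, -3.71 for PT2 and -1.35 for PT3.

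Among S-phase cyclins, Ccne1 and Ccne2 encode cyclins E1 and E2, which drive CDK2 at the start of replication. Ccne1 was at 10.1 FPKM in AstroEGFR*1, 20.6 FPKM in AstroEGFR*2 and 17.3 FPKM in AstroEGFR*3, and in this order AstroEGFR* values are given throughout. In PT1, PT2, PT3 and PT4 it was at 11.2, 1.85, 3.52 and 8.24 FPKM. PT2, PT3 and PT4 lay below every AstroEGFR* library, and PT1 lay within the range of AstroEGFR*. On the log2 scale the mean of Ccne1 was 4.03 ± 0.50 (SD, n = 3) for AstroEGFR* against 2.63 ± 0.96 (SD, n = 4) for PT, a difference of -1.41 (SE 0.53, unadjusted limma p = 0.0314, adjusted p = 0.309, exact permutation p = 0.114, two-sided). Ccne2 was at 8.33, 24.6 and 13.3 FPKM in AstroEGFR* and at 11.8, 0.552, 1.99 and 5.42 FPKM in PT1, PT2, PT3 and PT4, and again PT1 alone lay within the range of AstroEGFR*. Its log2 difference of -1.77 (SE 0.72, unadjusted limma p = 0.0410, adjusted p = 0.340, exact permutation p = 0.114) was the lowest of the 50 genes. An exact test of 3 against 4 libraries can give no p under 0.0286. Ccna2, whose cyclin A2 serves CDK2 in S phase and CDK1 later, was the most abundant of the group, at 73.0, 134.6 and 56.4 FPKM in AstroEGFR* and at 137.6, 3.66, 16.5 and 112.8 FPKM in PT1, PT2, PT3 and PT4. PT1 exceeded every AstroEGFR* library and PT2 was the lowest of all. Cdk2 itself differed least of the group, with a log2 difference of -0.14 and 15.6 to 56.0 FPKM in PT against 22.4 to 57.5 FPKM in AstroEGFR*.

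The 7 transcription factors included both the highest log2 difference of the list and some of its lowest levels. E2f3, an activator E2F, was at 9.41, 8.91 and 7.43 FPKM in AstroEGFR* and at 15.8, 8.12, 8.71 and 13.3 FPKM in PT1, PT2, PT3 and PT4. PT1 and PT4 lay above all of AstroEGFR*, and PT2 and PT3 lay among them. Its log2 difference was 0.34 (SE 0.29, limma adjusted p = 0.682). E2f1, another activator, was at 20.4, 11.3 and 23.2 FPKM in AstroEGFR* and at 17.8, 2.39, 16.2 and 11.6 FPKM in PT1, PT2, PT3 and PT4, and was the only gene of the 50 lower in PT1 than in AstroEGFR*1 and the only one for which PT3 lay above PT4. Foxm1, the forkhead factor of the mitotic wave, was at 32.01, 31.2 and 19.4 FPKM in AstroEGFR*, 46.4 and 41.3 FPKM in PT1 and PT4, and 1.297 and 5.18 FPKM in PT2 and PT3. The repressors E2f7 and E2f8 and B-MYB (Mybl2) had the same order, with 0.163, 0.270 and 0.159 FPKM in PT2 and 12.4, 18.9 and 8.12 FPKM in PT1. The median log2 difference of the 7 factors was -2.91 in PT2 and -1.34 in PT3 against AstroEGFR* of the batch, and 0.61 and 0.31 in PT1 and PT4.

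The 10 genes of replication licensing and the helicase had medians of 0.97 in PT1, 0.34 in PT4, -3.31 in PT2 and -1.76 in PT3 within batches. Mcm6, a subunit of the MCM helicase and the most abundant of them, was at 51.7, 127.4 and 62.9 FPKM in AstroEGFR* and at 73.9, 7.16, 13.4 and 49.2 FPKM in PT1, PT2, PT3 and PT4, with PT2 and PT3 clear of all other libraries of the comparison. Its log2 difference was -1.55 (SE 0.78, limma adjusted p = 0.446). Cdc6, which loads the helicase on origins, was at 3.95 to 9.73 FPKM in AstroEGFR* and at 0.151 and 0.509 FPKM in PT2 and PT3. Its partner in loading, Cdt1, had a different order. It was at 15.04, 29.3 and 14.5 FPKM in AstroEGFR* and at 32.5, 19.9, 20.5 and 22.3 FPKM in PT1, PT2, PT3 and PT4, with log2 differences of -0.54 for PT2 and 0.47 for PT3 within their batches. Mcm2 was the gene for which PT3 (17.5 FPKM) lay below PT2 (21.7 FPKM).

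Mki67, the antigen Ki-67 that coats mitotic chromosomes and is used in pathology to count cycling cells, was at 55.6, 146.0 and 15.8 FPKM in AstroEGFR* and at 75.8, 4.54, 5.83 and 78.8 FPKM in PT1, PT2, PT3 and PT4. Top2a was at 74.99, 252.3 and 66.6 FPKM in AstroEGFR* and at 164.2, 11.6, 32.1 and 106.2 FPKM in PT1, PT2, PT3 and PT4. For both, AstroEGFR*2 stood well above the other AstroEGFR*, and the groups overlapped, with log2 differences of -1.24 (SE 1.2) for Mki67 and -1.07 (SE 0.92) for Top2a.

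Of the genes of nucleotide supply, Rrm1 and Rrm2 encode the large and small subunits of ribonucleotide reductase. Rrm2 was at 79.7, 108.8 and 75.8 FPKM in AstroEGFR* and at 114.0, 2.68, 20.3 and 93.0 FPKM in PT1, PT2, PT3 and PT4. Its difference of -4.90 between PT2 and AstroEGFR*2 was the lowest of the 50 genes in that pair. Rrm1 was at 62.0, 144.3 and 70.6 FPKM in AstroEGFR* and at 156.9, 7.97, 15.1 and 96.9 FPKM in PT1, PT2, PT3 and PT4, and the subunits thus had the same order of PT libraries. Tk1, thymidine kinase, had the lowest difference of PT3 from AstroEGFR*3 (-2.51), at 3.0 against 21.7 FPKM. Pcna, the sliding clamp of DNA polymerases, differed less, with 31.7 and 36.9 FPKM in PT2 and PT3 against 44.7 to 126.5 FPKM in AstroEGFR*, and -1.96 and -0.27 within those batches.

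Every mitotic gene was lower in PT2 and in PT3 than in AstroEGFR* of the same batch. For the 9 genes for CDK1, B-type cyclins and mitotic kinases the log2 differences ran from -4.52 to -3.45 in PT2 and from -1.73 to -0.77 in PT3. Cdk1, the kinase that drives entry into mitosis, was at 46.0, 157.3 and 38.5 FPKM in AstroEGFR* and at 98.5, 9.21, 22.2 and 54.6 FPKM in PT1, PT2, PT3 and PT4. Plk1, polo-like kinase 1, was at 31.4, 53.5 and 34.4 FPKM in AstroEGFR* and at 39.8, 1.66, 9.647 and 31.6 FPKM in PT1, PT2, PT3 and PT4. For both, PT1 and PT4 lay within the range of AstroEGFR* and PT2 and PT3 below it. Aurkb, the kinase of the chromosomal passenger complex, was at 34.8, 60.4 and 31.6 FPKM in AstroEGFR* and at 62.8, 1.67, 11.6 and 44.9 FPKM in PT1, PT2, PT3 and PT4. Its partner Birc5, survivin of the chromosomal passenger complex, was at 57.9, 86.3 and 56.9 FPKM in AstroEGFR* and at 110.4, 2.37, 12.7 and 76.6 FPKM in PT1, PT2, PT3 and PT4. Cenpf, a kinetochore protein, had the smallest difference of its group in PT3 (-0.81), at 2.36 against 4.91 FPKM in AstroEGFR*3, which itself lay below the 18.6 and 27.99 FPKM of the other AstroEGFR*.

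Among kinesins and spindle proteins, Kif2c, a kinesin that depolymerises microtubules, was at 13.8, 44.6 and 17.6 FPKM in AstroEGFR* and at 18.4, 1.45, 5.21 and 11.96 FPKM in PT1, PT2, PT3 and PT4. Its log2 difference was -1.56 (SE 0.73, limma adjusted p = 0.413). Kif20a, a kinesin of cytokinesis, was at 38.1, 101.3 and 37.6 FPKM in AstroEGFR* and at 54.6, 3.28, 10.2 and 27.3 FPKM in PT1, PT2, PT3 and PT4, with a log2 difference of -1.69 (SE 0.85, limma adjusted p = 0.441). Kif2c and Kif20a were among the 11 genes that were lower in PT4 than in AstroEGFR*1. Prc1, which bundles microtubules of the central spindle, had the highest difference of PT1 from AstroEGFR*1 (1.41) and was at 47.5, 145.3 and 51.4 FPKM in AstroEGFR* and at 127.5, 6.17, 21.4 and 71.5 FPKM in PT1, PT2, PT3 and PT4. Ube2c, the ubiquitin-conjugating enzyme of the anaphase-promoting complex, was at 29.4, 106.9 and 93.4 FPKM in AstroEGFR* and at 46.6, 8.46, 39.0 and 52.9 FPKM in PT1, PT2, PT3 and PT4. For Ube2c, unlike most of the list, PT3 lay within the range of AstroEGFR*. Exons of 15 of the 50 genes overlap those of another gene in the GRCm38 annotation. The longest overlap was that of Gins2 (2758 bases with Gse1). Others were Ccne2 (609 bases with Ints8), Ccna2 (510 bases with Exosc9) and E2f8 (610 bases with Gm2788). Foxm1 (144 bases with Tex52), Kif20a (1271 bases with Cdc23) and Prc1 (911 bases with Rccd1) were also among them. Without knowing whether strand was used, reads of genes on opposite strands there cannot be told apart. Foxm1 and Tex52 lie on the same strand, where strand would not separate the reads. Ccnb1, Mcm7 and Pcna share long near-identical stretches with annotated pseudogenes, and their values are uncertain to that extent.

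**Figure D4:**
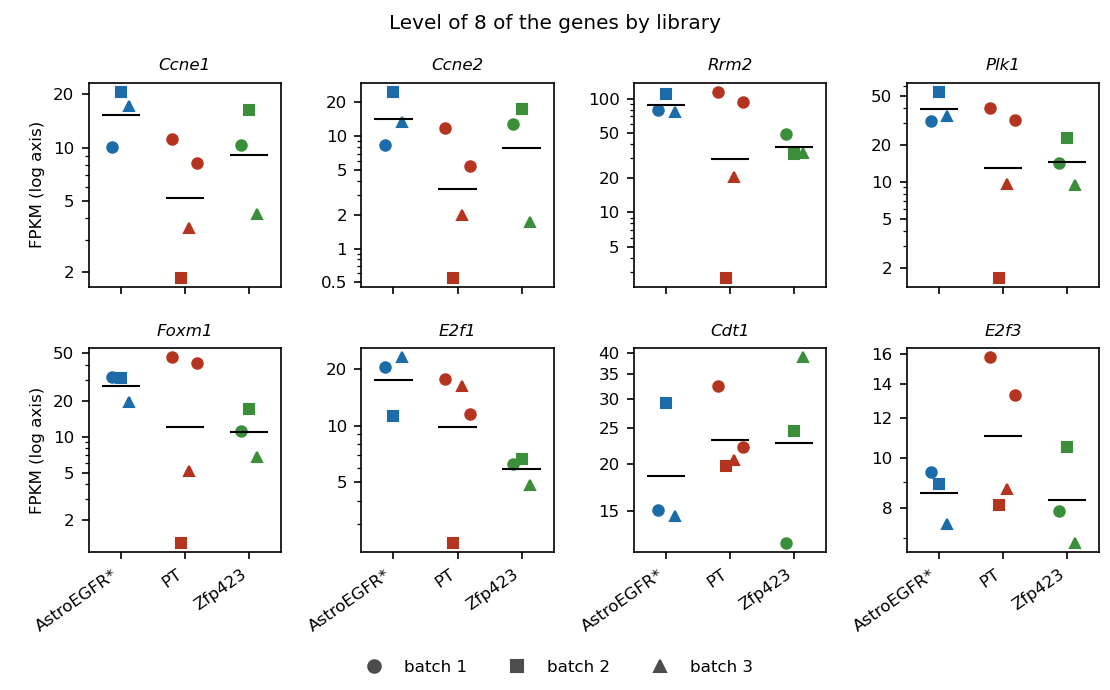
FPKM on a log axis of 8 of the genes in each library, by group, with the batch as the shape of the point and a line at the mean of log2(FPKM + 1) turned back to FPKM. In PT, the batch 1 circles of Rrm2 (114.0 and 93.0) and Plk1 (39.8 and 31.6) lie beside AstroEGFR* while the batch 2 squares (2.68 and 1.66) lie far below, and the Zfp423 points of Rrm2, Plk1, Foxm1 and E2f1 lie below all of AstroEGFR*.

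Other genes of the cell cycle were taken from lists outside the 50. Of 49 further S-phase genes, 48 were tested, 46 had a lower mean in PT and none passed the adjusted threshold (median log2 difference -0.76). Of 57 further mitotic genes, 56 had a lower mean and none passed (median -0.93). Within batches the further mitotic genes had medians of 0.73 in PT1, 0.39 in PT4, -3.20 in PT2 and -1.12 in PT3. The 13 genes of the RB family, DREAM subunits and other E2Fs, which regulate the list, differed less, with a median of -0.40 and medians from -0.69 to -0.01 within batches, and none passed. Of 12 genes for D-type cyclins, CDK4, CDK6 and CDK inhibitors, 11 were tested and none passed. Of the 11 tested, 7 had a lower and 4 a higher mean in PT (median log2 difference -0.11). Cdkn1a, which encodes the CDK inhibitor p21, had the lowest p of these, at 63.5, 17.3 and 56.0 FPKM in AstroEGFR* and at 127.9, 69.1, 99.2 and 161.6 FPKM in PT1, PT2, PT3 and PT4. The lowest PT value of Cdkn1a exceeded the highest AstroEGFR* value, with a log2 difference of 1.44 (SE 0.50, limma adjusted p = 0.268). Other inhibitors had other orders. Cdkn2b was at 119.8, 46.5 and 121.2 FPKM in AstroEGFR* and at 77.3, 162, 252.9 and 86.8 FPKM in PT1, PT2, PT3 and PT4. Cdkn2c was at 48.4, 94.9 and 32.7 FPKM in AstroEGFR* and at 47.6, 7.65, 21.2 and 57.0 FPKM in PT1, PT2, PT3 and PT4. The part of the inhibitors in the differences among PT was not tested. Of 17 immediate-early serum-response genes, 15 were tested, 8 had a higher and 7 a lower mean in PT (median 0.05), and at an unadjusted limma p below 0.05 there were 3 higher and 2 lower. The 2 that passed the adjusted threshold, as 1.24% of all features did, were both lower in PT: Cyr61, a matricellular protein, at -4.83 (SE 0.39, limma adjusted p = 0.00471), and Dusp1, a phosphatase of MAP kinases, at -2.13 (SE 0.35, limma adjusted p = 0.0372). Of 68 replication-dependent histones, 53 were tested, 52 had a lower mean and none passed. Their summed FPKM was 2000 to 10922 in the 5 libraries with the higher share of small RNA and 79.4 to 381.9 in the others.

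Markers of other cell types also differed between these libraries. All 8 markers of fibroblasts or meninges had a lower mean in PT, 1 of them past the threshold (Pdgfrb, -4.14, limma adjusted p = 0.0200), and the 8 summed to 674.6 to 6265 FPKM in AstroEGFR* and 47.6 to 530.8 FPKM in PT. PT1 and PT4, in which the cell cycle genes were high, summed to 121.7 and 47.6 FPKM, and PT2 and PT3, in which they were low, to 47.7 and 530.8 FPKM. The 10 markers of the oligodendrocyte lineage summed to 1432 and 1784 FPKM in PT1 and PT4 and to 160.9 and 155.7 FPKM in PT2 and PT3. The 9 astrocyte markers summed to 2727 and 3332 FPKM in PT1 and PT4 and to 1182 and 410.2 FPKM in PT2 and PT3. The part of cell composition, library type and depth in the differences among PT was not tested.

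The second comparison asked how these transcripts differ between AstroEGFR* Zfp423 and AstroEGFR* of the same astrocyte batches. Of the 50 genes, 49 had a lower mean with Zfp423, with a median log2 difference of -0.56 against 0.02 for the 12366 features tested, and Cdt1 had a higher mean. The median was -0.88 without either library of batch 1, -0.42 with 43 genes lower without either library of batch 2, and -0.36 with 46 genes lower without either library of batch 3. With limma and the batch as a block, none of the 50 and none of all features (0%) passed an adjusted p of 0.05. At an unadjusted limma p below 0.05 there were 913 features in either direction, 505 of them lower (4.08%), and 11 of the 50 genes (22%), all lower. These were Plk1, Foxm1, E2f8, Rrm2, E2f1, E2f7, Aurkb, Birc5, Tk1, Ccnb1 and Gins2, each with an adjusted p of 0.628. Their number was 15 with no filter on low values, 14 without small non-coding RNA and histones, 7 without the batch block, 3 to 7 when a library was left out, with 3 and 4 without AstroEGFR*1 and its Zfp423 library, and 1 when all 10 libraries shared 1 fit. In all, 22 genes (44%) were lower with Zfp423 in all 3 batches, against 15.3% of features.

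Within batches, 25 of the 50 genes were lower in AstroEGFR*1 Zfp423 than in AstroEGFR*1 and 25 were higher, against 47.2% of features lower, with a median of -0.03 and 3 lower by at least 1, which is 6% of the list against 8.1% of features. In batch 2, 49 were lower, E2f3 being the exception, against 49.8% of features, with a median of -0.70 and 11 lower by at least 1 against 12.1% of features. In batch 3, 45 were lower, against 49.2% of features, with a median of -0.95 and 22 lower by at least 1 against 17.2% of features. The 5 that were higher in batch 3 were Cdk2, E2f2, Cdt1, Cenpe and Cenpf. E2f2 averaged under 1 FPKM in the batch 3 pairs and is counted here all the same. With small non-coding RNA and histones left out and the rest rescaled, 30, 50 and 42 genes were lower in batches 1, 2 and 3. The number lower by at least 1 was then 6, 23 and 17, and the medians of the 50 genes were -0.11, -0.96 and -0.79, while the median of all features moved to -0.06, -0.22 and 0.18. Batch 2 then held the lowest median in place of batch 3, but relative to the median of all features batch 3 still lay lowest.

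**Figure D5:**
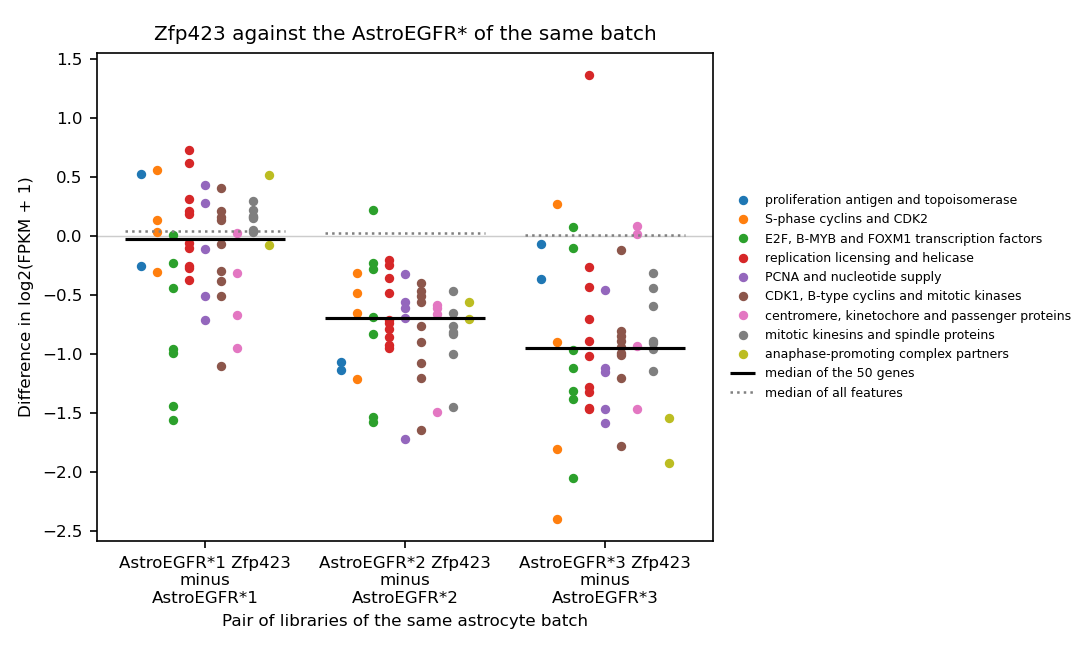
Difference in log2(FPKM + 1) of each of the 50 genes between an AstroEGFR* Zfp423 library and the AstroEGFR* library of its batch, coloured by role, with a black line at the median of the 50 genes and a dotted line at the median of all features tested. The medians are -0.03 in batch 1, -0.70 in batch 2 and -0.95 in batch 3, and the transcription factors hold the lowest points of batch 1.

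The transcription factors had the lowest median of the roles, -1.22. Of the 7, 4 were lower at an unadjusted limma p below 0.05, against 4.08% of features. E2f1 was at 6.28, 6.64 and 4.83 FPKM with Zfp423 in batches 1, 2 and 3, all below the lowest AstroEGFR* value of 11.3 FPKM. On the log2 scale it was 4.21 ± 0.52 (SD, n = 3) without and 2.78 ± 0.21 (SD, n = 3) with Zfp423, a difference of -1.43 (SE 0.35, limma adjusted p = 0.628, exact permutation p = 0.25) and the lowest of the 50. An exact test over 3 pairs can give no p under 0.25. Foxm1 was at 11.2, 17.1 and 6.84 FPKM with Zfp423 and E2f8 at 5.95, 6.25 and 2.74 FPKM, against lowest AstroEGFR* values of 19.4 and 7.13 FPKM. Both thus lay below AstroEGFR* with no overlap, with log2 differences of -1.22 (SE 0.24) for Foxm1 and -1.22 (SE 0.26) for E2f8. The activator E2f3 was at 7.89, 10.5 and 6.85 FPKM, with a difference of -0.04 (SE 0.25).

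Plk1 had the lowest p of the list. It was at 14.1, 22.7 and 9.36 FPKM with Zfp423 in batches 1, 2 and 3 and so below every AstroEGFR* library, 5.31 ± 0.40 (SD, n = 3) without and 3.95 ± 0.60 (SD, n = 3) with Zfp423 on the log2 scale. The difference was -1.36 (SE 0.25, unadjusted limma p = 0.00445, adjusted p = 0.628, exact permutation p = 0.25), and was -1.10, -1.20 and -1.77 in batches 1, 2 and 3. Rrm2 was at 48.4, 32.4 and 33.6 FPKM with Zfp423, again below every AstroEGFR* library, with a difference of -1.19 (SE 0.29, unadjusted limma p = 0.0125, adjusted p = 0.628, exact permutation p = 0.25). Its partner subunit Rrm1 was at 75.3, 97.4 and 24.9 FPKM, overlapping AstroEGFR*, and was higher than AstroEGFR* in batch 1 by 0.28. Birc5 was at 35.9, 56.1 and 20.01 FPKM, against a lowest AstroEGFR* value of 56.9 FPKM, with a difference of -0.92 (SE 0.27). The Plk1 and Rrm2 promoter windows shown above each held a CHR element and a CCAAT box. Both elements were in 54.3% of the 46 windows matched for the list. Of the other genes lower at an unadjusted limma p below 0.05, E2f8 and Ccnb1 also held both. E2f1 held neither, E2f7 lacked a CHR element, and Birc5 and Tk1 lacked a CCAAT box. Foxm1, Aurkb and Gins2 had no matched window. Whether these elements go with the differences was not tested.

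For other abundant genes the groups overlapped. Top2a was at 108.2, 119.7 and 63.4 FPKM with Zfp423 in batches 1, 2 and 3, with log2 differences of 0.52, -1.07 and -0.07 from its AstroEGFR*. Cdk1 was at 61.3, 49.8 and 35.3 FPKM and Prc1 at 52.7, 52.6 and 37.6 FPKM, and both were lower by over 1 on the log2 scale in batch 2 alone, at -1.64 for Cdk1 and -1.45 for Prc1. Ccna2 was at 58.7, 85.1 and 29.8 FPKM, lower in all 3 batches, with a difference of -0.62 (SE 0.24). Ube2c was at 42.3, 71.98 and 31.5 FPKM and differed most in batch 3 (-1.54). Mcm6 was at 64.5, 110.7 and 38.3 FPKM, a difference of -0.20 (SE 0.29). Each of these 6 genes had at least 1 Zfp423 library within the range of AstroEGFR*.

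Batch 3 held the extremes. Ccne2 was at 12.7, 17.3 and 1.72 FPKM with Zfp423 in batches 1, 2 and 3, and its difference of -2.40 in batch 3 was the lowest of the 50 there, against 0.56 and -0.49 in batches 1 and 2. Ccne1 was at 10.3, 16.3 and 4.23 FPKM and had the same order, with -1.80 in batch 3. Cdt1 was at 12.3, 24.6 and 38.9 FPKM, the last being the highest of all 10 libraries, 1.36 above AstroEGFR*3. Kif2c was at 16.2, 21.8 and 9.08 FPKM and Kif20a at 42.9, 57.2 and 16.5 FPKM, with log2 differences of 0.22 and 0.17 in batch 1 and both lower in batches 2 and 3. The 7 mitotic kinesins and spindle proteins had log2 differences of 0.03 to 0.29 in batch 1, against a median of 0.04 for all features of that pair, and all 7 were lower in batches 2 and 3.

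The other lists held no call in this comparison either. Of 48 further S-phase genes tested, 45 had a lower mean (median -0.43) and 8 had an unadjusted limma p below 0.05, all lower. The 57 further mitotic genes all had a lower mean (median -0.52) and 12 had such a p. Among all features, 4.08% were lower at that p. All 13 genes of the RB family, DREAM subunits and other E2Fs had a lower mean, with a median of -0.22. Of 11 tested genes for D-type cyclins, CDK4, CDK6 and CDK inhibitors, 8 had a lower mean, and Cdk6 was higher by 0.99 (SE 0.27, limma adjusted p = 0.628). The histones had a median of 2.55, and summed to 4717 against 381.9 FPKM in batch 1, 6771 against 10922 FPKM in batch 2 and 2562 against 157.3 FPKM in batch 3.

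The microglial markers were higher with Zfp423 for 12 of 12 genes, with none past the adjusted threshold, and summed to 4.19 to 15.8 FPKM in AstroEGFR*. In AstroEGFR*3 Zfp423, where the cell cycle genes had a median difference of -0.95, they summed to 1.23 FPKM with Aif1, Itgam, C1qa, C1qb, C1qc, Trem2 and Tyrobp at 0. In that library the fibroblast markers summed to 353.8 FPKM against 6265 FPKM in AstroEGFR*3, and Zfp423 was at 105.1 FPKM against 15.7 and 9.73 FPKM in the other batches. All 9 astrocyte markers had a lower mean with Zfp423, 3 at an unadjusted limma p below 0.05, against 4.08% of features. They summed to 668.2, 59.7 and 2811 FPKM in batches 1, 2 and 3, against 1330, 1770 and 1441 FPKM in AstroEGFR*. The sum was thus higher with Zfp423 in batch 3. Small non-coding RNA and histones took 35.8%, 36.1% and 54.8% of the FPKM with Zfp423 in batches 1, 2 and 3, against 0.844%, 29.7% and 4.88% in AstroEGFR*, so that the share was alike in batch 2 alone. The part of cell composition and of library type in the differences of the cell cycle genes with Zfp423 was not tested. In batches 1 and 3 the vector and the share of small RNA changed together and cannot be told apart.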

How the data were processed

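RNA of 3 AstroEGFR*, 4 PT and 3 AstroEGFR* Zfp423 cultures was analysed. The authors deposited 1 matrix of FPKM values, made per the labels with TopHat 1.3 and Cuffnorm on mm9. The labels name a TruSeq RNA kit, whereas the study names a stranded protocol after ribosomal RNA was removed. Whether strand was used in quantification is not given in the sources used here. FPKM hold no counts, so depth and counting error are unknown.

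Features averaging 1 FPKM or more across the compared libraries were tested on log2(FPKM + 1), a scale that understates changes of low genes, with limma 3.58.1 in R 4.3.3 (empirical Bayes with trend). P-values were adjusted by Benjamini-Hochberg over all features, with a threshold of 0.05. PT and AstroEGFR* were compared without a block, and Zfp423 with the astrocyte batch as a block. PT batches came from a figure of the study. Deviations of libraries of the same batch correlated at 0.346 to 0.499 for PT and at 0.24, -0.11 and -0.26 for Zfp423 in batches 1, 2 and 3 over 12476 features. An exact permutation test over libraries was added for single genes. The limma step was tested on simulated data.

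Full values were given for the 5 members of lowest p in each comparison, the most abundant in each role, and those of lowest and highest difference. Mki67, Aurkb and members given by a few values were added after their values were seen. The members and lists were chosen with earlier results of these data known. Motifs were searched with Python 3.11.15 in RefSeq windows of GRCm38.p6, from which no coordinate was carried to mm9. Alternatives were another pseudocount, no filter, median-ratio scaling, leaving out small RNA and histones, no trend, all libraries in 1 fit, the other choice of block, PT1 and PT4 averaged, and libraries or batches left out. Leaving out batch 2, and every alternative to the within-batch values, were chosen after seeing the data. ChIPseq, qPCR and tumour data were not analysed here.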

Additional observations from a re-analysis of the deposited data

Results flagged for a closer look

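The median log2 difference of the 50 genes between PT and the AstroEGFR* of the same batch was 0.70 for PT1, 0.29 for PT4, -3.71 for PT2 and -1.35 for PT3. PT from batch 1 moved one way and PT from batches 2 and 3 the other, and this difference between batches was not tested, since each pair is 1 library against 1.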

How the results depend on the processing

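No gene of the 50 passed the adjusted threshold under any alternative tried, and the group medians kept their sign, from -1.65 to -0.15 for PT and from -0.88 to -0.36 for Zfp423. The number of all features called for PT was 475 with the batch as a replicate block, 82 with all 10 libraries in 1 fit, 59 with PT1 and PT4 averaged, 8 without batch 3, 63 without batch 2, and 7 to 123 with 1 library left out (7 without AstroEGFR*1, 54 without AstroEGFR*3, 97, 70 and 58 without PT1, PT2 and PT4). For Zfp423, it was 2 with no replicate block, 51 without batch 2, and 0 to 60 with 1 library left out, 47 and 60 without AstroEGFR*2 and its Zfp423 library. The block changed no call of the 50 genes. For the 19 genes that the naming rule selects, over both comparisons and all alternatives, 588 differences kept their direction and side of the threshold and 20 changed sign, none of them called. Among these genes the latter were, for PT, Top2a (0.22), Cdk1 (0.23) and Prc1 (0.24) without batch 2, where 35 of all 50 genes were lower against 48 with all libraries. For Zfp423, without batch 3 or either of its libraries they were Ccne2 (0.035), Mcm6 (0.057) and Cdt1 (-0.26), without batch 2 or either of its libraries Top2a (0.23) and Cdk1 (0.14), and without either library of batch 1 E2f3 (0.056). With 1 library left out the differences with Zfp423 ran from -1.44 to 0.035 for Ccne2, -0.45 to 0.057 for Mcm6, -0.26 to 0.56 for Cdt1, -0.57 to 0.23 for Top2a, -0.88 to 0.14 for Cdk1 and -0.17 to 0.056 for E2f3. The cause was not tested. Within-batch medians kept their sign under a pseudocount of 0.1, median-ratio scaling and leaving out small RNA and histones. Counts and depth are unknown, so values near 0, such as Cdc6 and Mybl2 in PT2, have no stated precision, and 3 or 4 cultures a group limit every test.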
